A study of Mus musculus with 18 samples.

Results

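Calcium handling genes of skeletal muscle were examined in hindlimb muscle from female mice of the strain C57BL/6J, at the ages of 2, 20 or 28 months. The group was named gene by gene and holds 10 of the 23420 gene rows of the RNA-seq table: the calcium pumps Atp2a1 and Atp2a2, the pump regulators Pln and Sln, the store proteins Casq1 and Casq2, the release channels Ryr1 and Ryr3, the voltage sensor Cacna1s and the cytosolic buffer Pvalb. All 10 passed the filter on low values, a mean of 10 normalized counts, that left 13178 genes for testing. A normalized count is the number of reads on a gene divided by a factor for the size of its library. The labels name no transgene and no treatment, and each age group had 3 mice with 1 RNA-seq library each (n = 3), and age is what the labels give as the difference between the groups. Capture of methylated DNA followed by sequencing (MBD-seq) was made from the muscle and from splenic T cells of the same mice. For each age, the DNA of the 3 mice was combined, so that every age is 1 pool of each tissue without a replicate over mice. The muscle pools were captured in 2 rounds, of which 1 column per age was analysed.

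In a resting fibre, calcium is held in the sarcoplasmic reticulum. An action potential is sensed by the dihydropyridine receptor in the transverse tubule, which opens the ryanodine receptor facing it at the triad, and the released calcium binds troponin and starts contraction. Relaxation follows as buffers take up the calcium and the SERCA pumps return it to the store, where calsequestrin binds it. Fast and slow fibres use different members of these families: Atp2a1, Casq1 and Pvalb are known as genes of fast fibres, and Atp2a2, Casq2 and Pln as genes of slow fibres and heart.

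The 9 libraries held from 20203833 to 71115244 reads on genes. The 6 genes that define muscle fibres were present in every library, with Acta1 (skeletal actin) between 1006618 and 1406635 normalized counts, while the heart gene Myl7 was at 0 in all 9. Libraries stood apart in 3 ways. In 2-m replicate 1, the summed counts of 6 marrow neutrophil genes were 4391, against 61.4 and 66.96 in the other 2-m libraries, and those of 7 bone and cartilage genes were 2028 against 93.4 and 122. In 2-m replicate 2, the 7 slow fibre genes summed to 106427, against 9950 and 22772 in replicates 1 and 3. In replicate 3 of every age, Rn45s (the ribosomal RNA precursor) took from 8.81 to 10.4% of the gene reads, against 23.96 to 30.4% in the other libraries. Results for the members are therefore also given without 2-m replicate 1, without 2-m replicate 2 and within libraries 1 and 2.

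At 20 months, 2 of the 10 members were higher and 2 were lower than at 2 months at an adjusted p under 0.05 (limma, Benjamini-Hochberg over all 13178 genes): Atp2a2 and Sln rose, and Casq1 and Pvalb fell. Among all tested genes, 16.6% passed this threshold in that comparison, 9.42% higher and 7.13% lower. At 28 months, 3 members were higher (Atp2a2, Sln and Casq2) and 2 were lower (Casq1 and Pvalb) than at 2 months, where 13.8% of all tested genes passed, 7.53% higher and 6.24% lower (992 and 822 genes, or 1184 and 589 when the libraries were rescaled to equal sums without Rn45s). Between 28 and 20 months none of the 10 passed in limma, 2 had an unadjusted p under 0.05 (Sln and Cacna1s) beside 10.6% of all tested genes, and edgeR and DESeq2 on the recovered reads each called 1, Sln. In that comparison 0.379% of all tested genes passed in limma, 0.212% higher and 0.167% lower, and 1.73% passed in DESeq2. The shares of all tested genes called by edgeR are not given here, so its counts stand without that background. At an unadjusted p under 0.05 there were 31.5 and 28.2% of all tested genes at 20 and 28 months against 2 months, and 33.5% with both older ages pooled. With both older ages pooled against 2 months, the same 3 members were higher and the same 2 lower as at 28 months, while 20.1% of all tested genes passed, 11.2% higher and 8.92% lower. The median log2 fold change of the 10 members was 0.46 at 20 months and 0.30 at 28 months against 2 months, beside -0.02 and -0.01 over all tested genes.

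Without 2-m replicate 1, 4 members passed in each of the comparisons with 2 months, beside 10.6 and 8.4% of all tested genes at 20 and 28 months. Without 2-m replicate 2 there were 6 at 20 months and 5 at 28 months, beside 15.1 and 13%. Within libraries 1 and 2 alone, 4 passed in each, beside 8.34 and 5.4%. Atp2a2, Sln, Casq1 and Pvalb passed in both comparisons under each of the 22 alternatives tried, and the other members did so in some of them at most. By the threshold of the study, which asks for more than a 2-fold change and a p under 0.05 before adjustment, 2 members differed at 20 months (Atp2a2 and Sln) and 5 at 28 months (Atp2a2, Sln and Ryr3 higher, Casq1 and Pvalb lower) against 2 months, and Sln differed between 28 and 20 months. By that rule 2.27% of all tested genes were higher and 2.9% lower at 20 months (5.17% in all), 2.66% higher and 2.48% lower at 28 months (5.14% in all), and 0.926% higher between 28 and 20 months (1.31% in all). For both older ages against 2 months, 3 members were higher by it (Atp2a2, Sln and Ryr3) and none lower, beside 2.43 and 2.68% of all genes (5.11% in all).

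**Figure D1:**
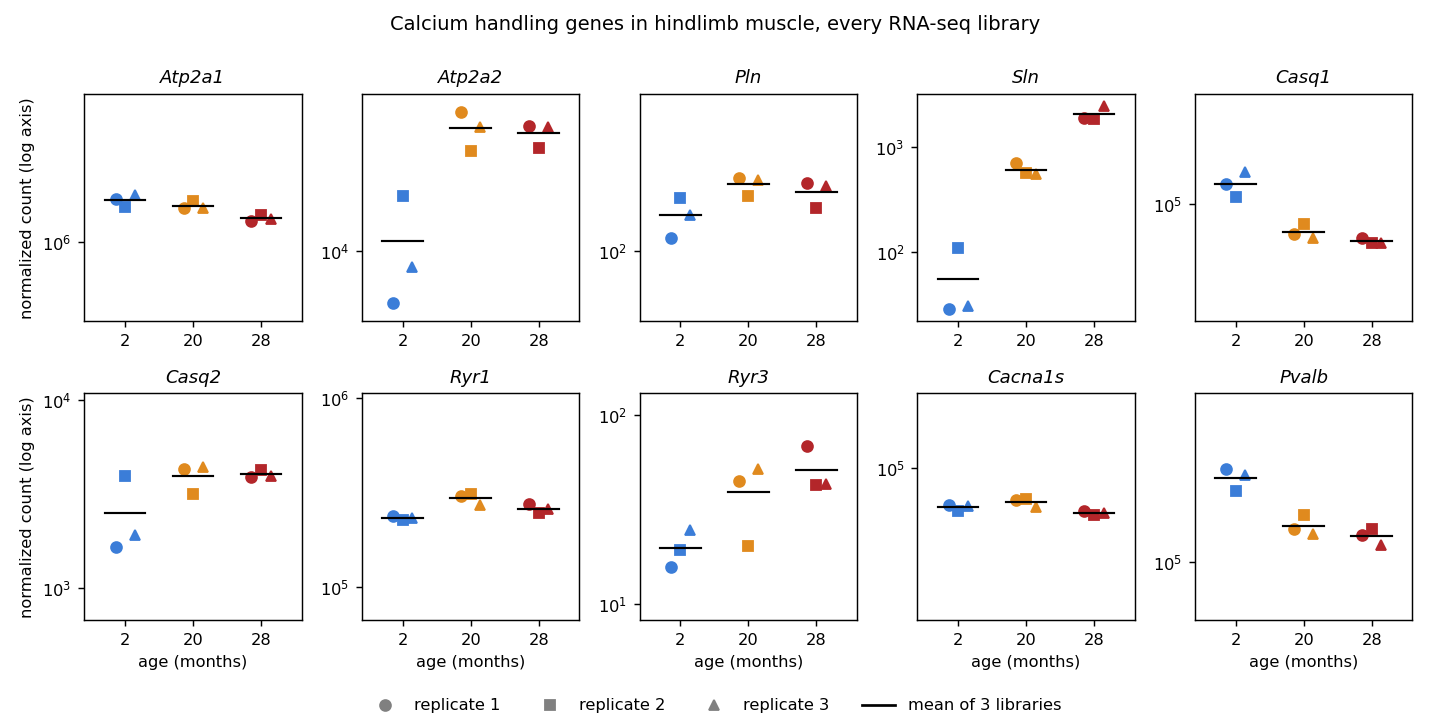
Normalized counts of the 10 genes in every library by age in months, on a log axis that covers at least a 16-fold range in each panel. Points are libraries, their shapes are the replicate numbers and the line is the mean of 3 libraries. The 2-m libraries lie below all older ones for Sln and Atp2a2 and above them for Casq1 and Pvalb, while the groups of Cacna1s at 2 months overlap both older ones.

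**Figure D2:**
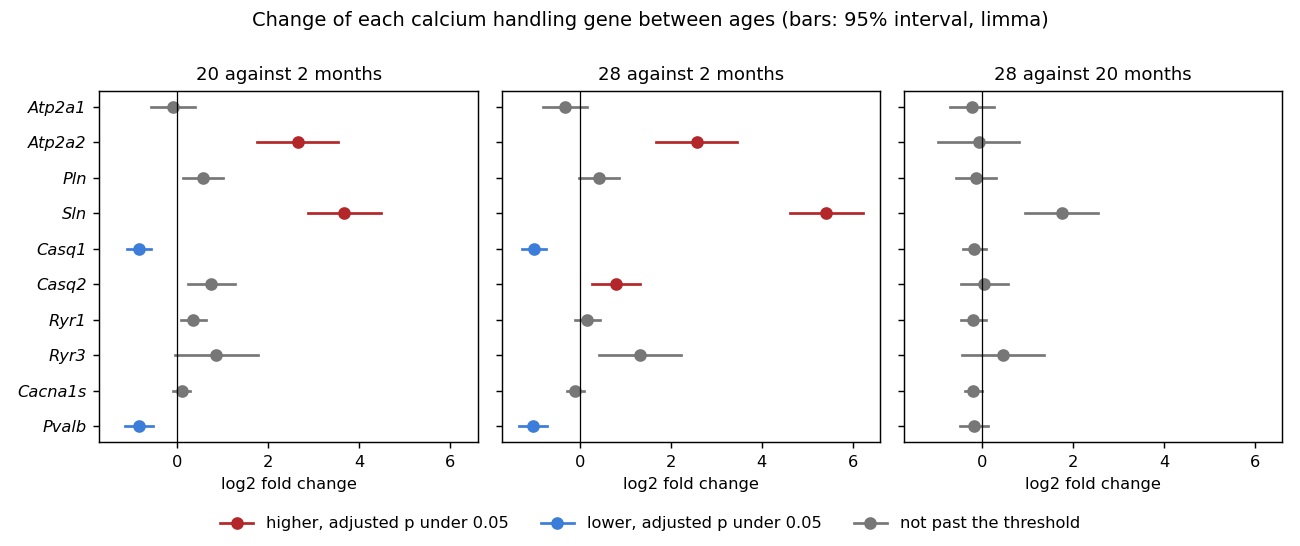
Log2 fold change of each gene between ages, with the 95% interval from limma over 9 libraries. Red marks a higher and blue a lower level at an adjusted p under 0.05. Sln lies farthest to the right in all 3 panels, at 3.67, 5.42 and 1.75, and the last of these is not past the threshold.

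The pumps were the first pair compared. Atp2a1 encodes SERCA1, the calcium pump of fast fibres. It had 1678856, 1530910 and 1771979 normalized counts at 2 months, 1512900, 1637960 and 1504493 at 20 months, and 1291838, 1393381 and 1316177 at 28 months. All 3 libraries at 28 months lay below all 6 younger ones, while the libraries at 2 and 20 months overlapped. The log2 fold change was -0.10 (SE 0.22, adjusted p = 0.805, limma) at 20 months and -0.31 (SE 0.22, adjusted p = 0.391) at 28 months against 2 months, with an interval from -0.80 to 0.17 for the latter. At 28 months DESeq2 on the recovered reads also gave -0.31, with an adjusted p of 0.00169, and was alone among 22 alternatives in calling Atp2a1 (adjusted p from 0.00169 to 0.827).

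Atp2a2 encodes SERCA2, the pump of slow fibres and heart. The libraries held 4643, 22217 and 7922 normalized counts at 2 months, 75791, 42727 and 61475 at 20 months, and 62117, 45130 and 61461 at 28 months. Every older library exceeded every 2-m library, and the 2-m libraries spread over 4.79-fold, more than the 1.77-fold at 20 months and the 1.38-fold at 28 months. It rose by 2.64 on the log2 scale at 20 months (SE 0.41, adjusted p = 0.00118, limma), which is a 6.24-fold change, and by 2.57 at 28 months (SE 0.41, adjusted p = 0.00147). Between 28 and 20 months the difference was -0.07, with an interval from -0.96 to 0.82. Leaving out single libraries gave values between 2.14 and 3.27 at 20 months and between 2.07 and 3.20 at 28 months, all past the threshold, with the lowest without 2-m replicate 1 and the highest without 2-m replicate 2.

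Pln encodes phospholamban, which lowers the calcium affinity of SERCA until it is phosphorylated. Normalized counts of Pln were 118, 192 and 155 at 2 months, 245, 196 and 238 at 20 months, and 230, 170 and 221 at 28 months. The libraries at 2 and 20 months did not overlap, by a margin of 192 against 196 counts, and those at 2 and 28 months did. The log2 fold changes of 0.56 (adjusted p = 0.0765, limma) and 0.43 (adjusted p = 0.189) against 2 months did not pass the threshold. Without 2-m replicate 2 the value at 20 months was 0.73 with an adjusted p of 0.0320. The row rests on 53 to 437 reads per library, and Pln lies on the opposite strand of Cep85l, whose reads could not be told apart from those of Pln if the counting ignored the strand.

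Sln encodes sarcolipin, a small membrane protein that binds SERCA and uncouples its ATP use from calcium transport. For Sln, normalized counts were 29.0, 109 and 31.0 at 2 months, 702, 565 and 548 at 20 months, and 1871, 1851 and 2414 at 28 months. The 3 groups did not overlap in any pair of ages, and the means stood at 56.4 ± 45.8, 605 ± 84.6 and 2045 ± 319 (SD, n = 3). The rise was 3.67 on the log2 scale at 20 months (SE 0.37, adjusted p = 6.33e-05, limma), or 12.7-fold, and 5.42 at 28 months (SE 0.37, adjusted p = 3.17e-06), or 42.9-fold. At 2 months the row held 13, 62 and 43 reads, so these fold changes depend on few reads at the young age. Leaving out single libraries gave values between 3.34 and 4.28 at 20 months and between 5.09 and 6.03 at 28 months on the log2 scale, all past the threshold, with the highest, more than 1.5 times the fold with all libraries, without 2-m replicate 2.

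From 20 to 28 months Sln differed by 1.75 on the log2 scale (SE 0.37), a 3.37-fold higher level with an unadjusted p of 0.000427 and an adjusted p of 0.0751 in limma. The size held between 1.56 and 1.86 in the 22 alternatives, and the adjusted p passed in 7 of them, with a range from 6.20e-05 to 0.412. The 7 comprised edgeR (0.00859), DESeq2 (0.0192), the fit with the replicate number as a block (0.0393), rescaling to equal sums (0.00241), the fit of only these 2 groups (0.000229), and leaving out 2-m replicate 2 (6.20e-05) or 2-m replicate 3 (0.0460). These last cases remove a library of neither group compared, and act on the shared estimate of the spread. By its p, Sln was number 75 of all tested genes in this comparison.

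Casq1 encodes the calsequestrin of fast fibres, the main calcium binding protein of their store. Levels were 127896, 109058 and 147435 normalized counts at 2 months, 69460, 78597 and 65673 at 20 months, and 65667, 62349 and 61760 at 28 months. Every older library lay below every 2-m library. It fell by 0.84 on the log2 scale at 20 months (SE 0.12, adjusted p = 0.000676, limma) and by 1.01 at 28 months (SE 0.12, adjusted p = 0.000185), to 0.497 of the 2-m level. All 3 libraries at 28 months were also below all 3 at 20 months, by a margin of 65667 against 65673 counts, and the difference of -0.17 did not pass the threshold (adjusted p = 0.676). The noncoding gene Gm17224 lies on the opposite strand of Casq1.

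Casq2 encodes the calsequestrin of heart and slow fibres. In the libraries it stood at 1667, 3933 and 1929 normalized counts at 2 months, 4282, 3160 and 4397 at 20 months, and 3922, 4255 and 3958 at 28 months. 2-m replicate 2 lay within the range of the older libraries, and the other 2-m libraries lay below it. The log2 fold change was 0.74 (SE 0.24, adjusted p = 0.0525, limma) at 20 months and 0.79 (SE 0.24, adjusted p = 0.0458) at 28 months. At 20 months it passed in 3 of the 22 alternatives, namely TMM scaling (adjusted p = 0.0488), the replicate number as a block (0.0388) and without 2-m replicate 2 (0.000112). The call at 28 months held in 10 of the 22 alternatives and was lost in both count tests, with adjusted p from 8.63e-05 to 0.249 over all of them. Without 2-m replicate 1 the value was 0.55 (adjusted p = 0.176), and the call was also lost without 2-m replicate 3, 20-m replicate 1 or 3, or any of the 28-m libraries. Without 2-m replicate 2 it was 1.17 at 28 months and 1.12 at 20 months, both past the threshold.

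Of the channels, Ryr1 encodes the ryanodine receptor that releases calcium in skeletal muscle. Ryr1 was measured at 236426, 226177 and 232198 normalized counts at 2 months, 304841, 311510 and 272235 at 20 months, and 274232, 245055 and 259512 at 28 months. The 2-m libraries lay below all 6 older ones, and the mean was highest at 20 months. The log2 fold changes of 0.35 (SE 0.13, adjusted p = 0.0744, limma) at 20 months and 0.16 (adjusted p = 0.435) at 28 months did not pass. At 20 months DESeq2 gave 0.36 with an adjusted p of 0.000165, and 5 of 22 alternatives passed (adjusted p from 0.000165 to 0.508). Genes on the opposite strand, Gm38979 and Gm26604, overlap Ryr1.

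Ryr3 encodes a ryanodine receptor found at low levels in adult limb muscle. Its libraries held 15.6, 19.4 and 24.5 normalized counts at 2 months, 44.8, 20.2 and 51.8 at 20 months, and 68.3, 42.8 and 43.4 at 28 months. The libraries at 2 and 28 months did not overlap, and 20-m replicate 2 lay within the 2-m range. The log2 fold change at 28 months was 1.32 (SE 0.42), with an adjusted p of 0.0542 in limma that passed in 4 of 21 alternatives (from 0.0355 to 0.193), of which 1 left out 20-m replicate 2 (0.0359). The row held 7 to 95 reads per library.

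Cacna1s encodes the pore subunit of the dihydropyridine receptor, which senses the voltage. Cacna1s stood at 63149, 58910 and 62719 normalized counts at 2 months, 66888, 68480 and 62078 at 20 months, and 58930, 55824 and 57432 at 28 months. The libraries at 2 months overlapped both older groups, and those at 28 months lay below those at 20 months. The log2 fold changes against 2 months were 0.10 (interval from -0.09 to 0.28) and -0.10 (interval from -0.29 to 0.09). The difference of -0.20 between 28 and 20 months had an unadjusted p of 0.0418 and an adjusted p of 0.451 (limma).

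Pvalb encodes parvalbumin, a calcium buffer of the fast fibre cytosol that speeds relaxation. The normalized counts of Pvalb were 313171, 240007 and 290666 at 2 months, 149911, 177142 and 141062 at 20 months, and 139824, 149884 and 123348 at 28 months. Every older library lay below every 2-m library, and the older ages overlapped. It fell by 0.85 on the log2 scale at 20 months (SE 0.14, adjusted p = 0.00200, limma) and by 1.03 at 28 months (SE 0.14, adjusted p = 0.000560), to 0.491 of the 2-m level.

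Counted over the group, 4 members at 20 months (Atp2a2, Pln, Sln and Ryr1) had all libraries above those of 2 months and 2 (Casq1 and Pvalb) had all below. Among all tested genes the libraries of these ages did not overlap for 36.0%, 18.4% higher and 17.6% lower. At 28 months 4 members (Atp2a2, Sln, Ryr1 and Ryr3) lay wholly above 2 months and 3 (Atp2a1, Casq1 and Pvalb) wholly below, beside 15.3% of all genes higher and 15% lower (30.3% in all). Between 28 and 20 months Sln lay wholly above and Atp2a1, Casq1 and Cacna1s wholly below, beside 8.63% of all genes higher and 8.84% lower (17.5% in all). In the two-sided exact permutation test of a single gene, each case of no overlap gives p = 0.1, which is the smallest that 3 against 3 libraries allow. With the 6 older libraries against the 3 at 2 months, Atp2a2, Sln, Casq1, Ryr1 and Pvalb reached the smallest possible p of 0.0238, and 10.5% of all tested genes lay wholly higher and 9.6% wholly lower in that comparison (20.1% in all).

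Levels of different genes were compared per kb of exon, the scale on which gene length is divided out. At 2 months the order of the mean levels per kb was Atp2a1, Pvalb, Casq1, Ryr1, Cacna1s, Atp2a2, Casq2, Sln, Pln and Ryr3, from 482727 normalized counts per kb for Atp2a1 to 1.28 for Ryr3. The neighbours Atp2a2 and Casq2 overlapped, as did Sln and Pln, and the other neighbours did not. At 20 months Atp2a2 stood 1.09-fold above Cacna1s with overlapping libraries, and Sln overlapped Casq2. At 28 months the libraries of Sln lay wholly above those of Casq2, 2.49-fold by the means. The first 4 places were the same at all 3 ages.

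Within each family the ratio of the members was also taken on the per kb scale. Atp2a2 made up 0.179, 0.934 and 0.290% of the SERCA pair at 2 months, 3.15, 1.67 and 2.59% at 20 months, and 3.03, 2.06 and 2.94% at 28 months. Atp2a1 thus remained by far the larger part of the pair, and every older library had a higher share of Atp2a2 than every 2-m library. Casq2 was 0.943, 2.57 and 0.947% of the calsequestrin pair at 2 months, 4.31, 2.85 and 4.66% at 20 months, and 4.18, 4.75 and 4.47% at 28 months. Of the pump regulators, Pln was 46.1, 26.9 and 51.2% of the pair with Sln at 2 months, 6.81, 6.77 and 8.35% at 20 months, and 2.51, 1.89 and 1.88% at 28 months. The levels of both regulators overlapped at 2 months, and Sln was more abundant in all 6 older libraries. Ryr3 never exceeded 0.0248% of the ryanodine receptor pair. These shares combine genes already tested above, and no further test was made on them.

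**Figure D3:**
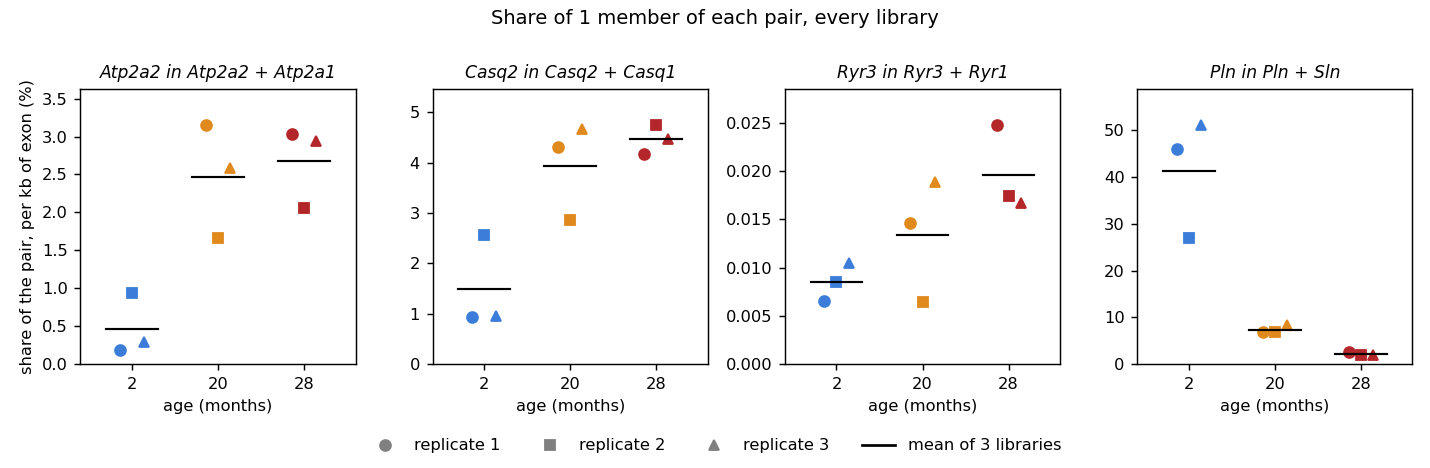
Share of 1 gene in each pair, Atp2a2, Casq2, Ryr3 or Pln (percent of the summed level per kb of exon) by age in months. Points are libraries and the line is the mean of 3. The shares of Atp2a2 and Casq2 lie higher at 20 and 28 months than at 2 months in all libraries, and that of Pln falls from between 26.9 and 51.2% to between 1.88 and 2.51%.

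Fibre type genes moved with several members. All 7 genes of the slow fibre list rose at 20 months and at 28 months against 2 months (limma). The medians were 2.65 and 2.74 on the log2 scale, against 2.64 and 2.57 for Atp2a2. By edgeR 5 and 4 of the 7 were called, without a share of all genes by edgeR to set beside them. Myh7, the slow myosin heavy chain, was at 2773, 44700 and 8400 normalized counts at 2 months, between 62731 and 109827 at 20 months, and between 80566 and 112463 at 28 months. Within libraries 1 and 2 alone, none of the 7 slow fibre genes passed the limma test in either comparison, with medians of 2.35 and 2.41, whereas Atp2a2 did. Without 2-m replicate 2 the medians were 3.71 and 3.78, and without 2-m replicate 1 they were 1.82 and 1.98 with 6 of the 7 called. In the fast fibre list of 9 genes, Myh2 rose by 0.80 at 20 months and 0.70 at 28 months, Mylpf fell by 0.66 and 0.46, Myl1 fell by 0.50 at 20 months, and Actn3 and Tnnc2 fell by 0.52 at 28 months. When 2-m replicate 1 was left out, limma called 2 fast fibre genes at 20 months, both lower, and 0 at 28 months, and within libraries 1 and 2 it called 0 in both comparisons. Of the 6 genes that define muscle fibres, Neb and Des rose at 20 months and Des at 28 months, calls that were lost without 2-m replicate 1 and within libraries 1 and 2. In whole muscle, a smaller share of fibres of one type and less RNA of a gene per fibre cannot be told apart.

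The level of Atp2a2 was set beside the summed counts of the slow fibre list, a comparison chosen after the values were seen. It came to 46.7, 20.9 and 34.8% of that sum at 2 months, 31.6, 31.4 and 32.8% at 20 months, and 28.5, 25.5 and 28.4% at 28 months, so the older libraries lay within the range of the young ones. For Casq2 the share was 16.8, 3.70 and 8.47% at 2 months and between 1.78 and 2.41% in all older libraries. Sln stood at 0.291, 0.103 and 0.136% at 2 months, 0.293, 0.416 and 0.292% at 20 months, and 0.858, 1.05 and 1.11% at 28 months. Its share at 28 months lay above that of all other libraries. The part of the fibre type genes in the changes of the members was not tested beyond these values.

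The genes whose profile over the 9 libraries was most like that of a called member were named by the root mean square difference of centred log2 values. For Atp2a2 these were Myl2 (slow myosin light chain, 0.200), Nlrc3 (0.258) and Tpm3 (slow tropomyosin, 0.261), beside a root mean square of 1.36 for Atp2a2 itself. The nearest to Pvalb was Jph2 (junctophilin, which ties the tubule to the store) at 0.10, followed by Sh2d7 (0.105) and Dhrs7c (0.132), beside 0.469 for Pvalb. Casq1 was nearest to Ccdc88c (0.121), Slc37a4 (0.128) and Jph2 (0.131), beside 0.458. Sln was nearest to Krt18 (0.531), Plekhh1 (0.748) and Cyp4f14 (0.767), beside 2.32, and Casq2 to Aox1 (0.105), Smtnl1 (0.132) and Chml (0.144), beside 0.496. These are descriptions over 9 libraries that share their age groups.

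**Figure D4:**
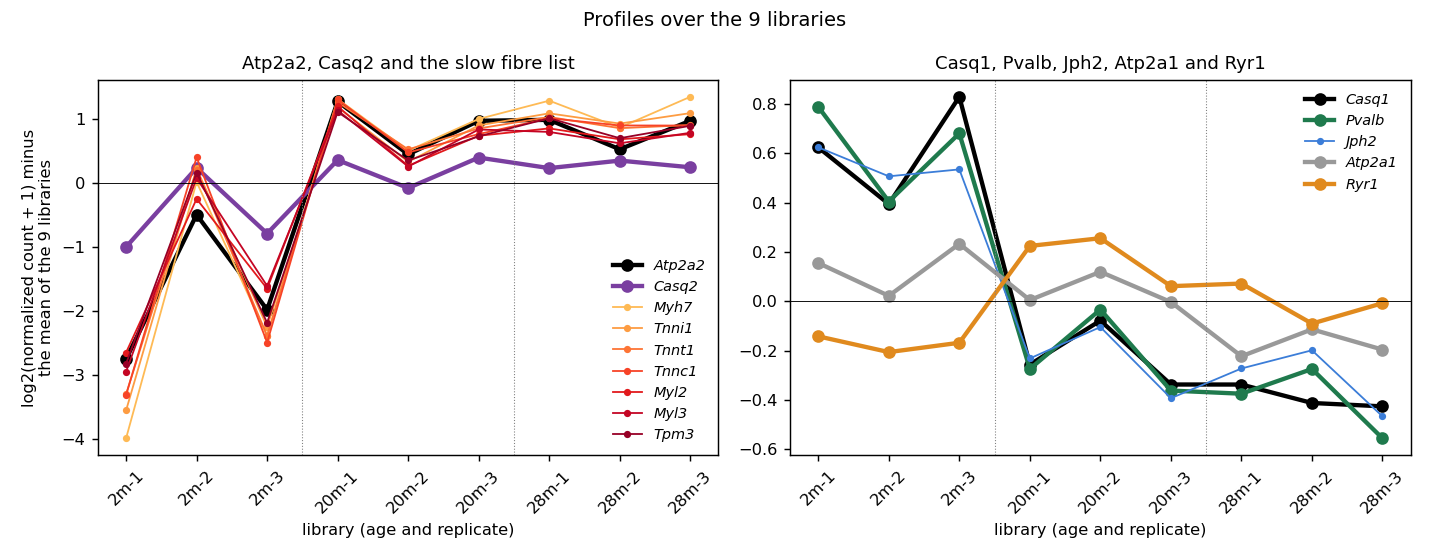
Log2 of the normalized count plus 1 in each library, minus the mean of the gene over the 9 libraries. The left panel shows Atp2a2, Casq2 and the 7 slow fibre genes, of which 2-m replicate 2 lies nearest to the older libraries; the right panel shows Casq1, Pvalb and Jph2, which lie above 0 at 2 months and below 0 at 20 and 28 months, with Atp2a1 and Ryr1.

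Partners of the members at the triad were next examined. Of 21 genes of the release machinery, 20 were tested, and 2 rose and 6 fell at 20 months, while 1 rose and 4 fell at 28 months against 2 months, beside 9.42% of all tested genes higher and 7.13% lower at 20 months and 7.53 and 6.24% at 28 months. Without 2-m replicate 1, 1 rose and 5 fell at 20 months and 1 rose and 4 fell at 28 months, beside 10.6 and 8.4% of all tested genes called in either direction. Within libraries 1 and 2, 1 rose and 4 fell at 20 months and 1 rose and 3 fell at 28 months, beside 8.34 and 5.4%. These shares of all genes apply to the counts of the other lists too. Jph2 was between 48232 and 52321 normalized counts at 2 months and between 24564 and 31574 in all older libraries. It fell by 0.80 on the log2 scale at 20 months (SE 0.10, adjusted p = 0.000241, limma) and by 0.87 at 28 months (SE 0.10, adjusted p = 0.000151). Asph, whose locus also encodes the triad protein junctin, fell by 0.38 and 0.58. Cacnb1, the beta subunit of the voltage sensor, fell by 0.50 at 20 months (adjusted p = 0.000901) and was at -0.18 at 28 months (adjusted p = 0.133). Its gamma subunit Cacng1 rose by 0.38 (adjusted p = 0.0157) and 0.54 (adjusted p = 0.00272). Calm2, a calmodulin gene, fell by 0.47 at 20 months, and another, Calm3, fell by 0.60 at 28 months. The median of the list was -0.15 and -0.20, beside -0.02 and -0.01 over all tested genes.

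Among 9 other pump and store proteins 6 were tested. By limma 0 were called at 20 months, with 1 at an unadjusted p under 0.05, and at 28 months Mrln (myoregulin, a SERCA inhibitor of skeletal muscle, listed as 2310015B20Rik) fell by 0.82 (adjusted p = 0.0100, limma) and Srl (sarcalumenin, a store protein) fell by 0.37. Of 8 genes of store-operated and surface entry, 0 were called at 20 months by limma, with 1 at an unadjusted p under 0.05, and Orai3 (a plasma membrane calcium channel) fell by 0.47 at 28 months (adjusted p = 0.0355), a call lost without 2-m replicate 1. Of 8 extrusion genes, Slc8a3 (a sodium-calcium exchanger) rose by 0.49 and 0.47 at 20 and 28 months. Among genes of mitochondrial uptake, Micu2 (a gatekeeper of the uniporter) rose by 0.43 and 0.58. Itpr1, one of 3 IP3 receptor genes, rose by 0.45 and 0.29, and its call at 28 months was lost without 2-m replicate 1. Within libraries 1 and 2 the calls of Orai3, of Slc8a3 and Itpr1 at both ages and of Micu2 at 20 months were lost, and 1 of the 6 pump and store proteins tested fell at 28 months.

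Of 15 genes of calcium signalling, 5 rose at 20 months, beside 9.42% of all tested genes, and 5 rose and 2 fell at 28 months, beside 7.53 and 6.24%. Nfatc2, a transcription factor activated by calcineurin, rose by 0.92 (adjusted p = 0.00351, limma) and 0.81 (adjusted p = 0.00825). Camk2b, a calmodulin-dependent kinase subunit, rose by 0.67 and 0.65, and Rcan1, a calcineurin regulator, rose by 0.57 and 0.67. Camk2a, another subunit of that kinase, fell by 0.52 at 28 months. Without 2-m replicate 1 the counts were 2 risen and 1 fallen at 20 months, and 4 risen and 2 fallen at 28 months. Within libraries 1 and 2, 2 rose in each comparison. Over the 7 calcium lists, 68 genes were tested, of which limma called 16 at 20 months, 19 at 28 months and 26 with both older ages pooled against 2 months, beside 16.6, 13.8 and 20.1% of all tested genes. At 28 against 20 months limma called 0 of them, beside 0.379% of all tested genes, with 11 at an unadjusted p under 0.05 beside 10.6% of all tested genes. In that comparison edgeR called 0 of the 68 and DESeq2 called 2, beside 1.73% of all tested genes in DESeq2.

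Markers of other tissue states were measured beside these genes. Of 7 denervation genes, 4 rose at 20 months and 6 at 28 months against 2 months, beside 9.42 and 7.53% of all tested genes, and Myog rose between 20 and 28 months (1.26 on the log2 scale, adjusted p = 0.0473, limma), the comparison in which Sln differed by 1.75. This call of Myog was lost without 2-m replicate 1 and within libraries 1 and 2, and without 2-m replicate 1 the denervation genes called were 3 at 20 months and 4 at 28 months, beside 10.6 and 8.4% of all tested genes in either direction. Myh3, the embryonic myosin heavy chain, rose by 1.89 and 2.51. Of 6 adipocyte genes, 4 fell at 20 months and 2 at 28 months, and their summed counts were between 7234 and 11015 at 2 months and between 4704 and 6887 in the older libraries. With 2-m replicate 1 left out, 1 adipocyte gene fell at 20 months and 2 at 28 months. Within libraries 1 and 2, 3 adipocyte genes fell at 20 months and 0 at 28 months, and 2 and 4 denervation genes rose. In the macrophage list 2 of 6 fell at 20 months and 0 at 28 months, also at an unadjusted p under 0.05, and in the smooth muscle list Smtn fell by 0.44 at 20 months. Of the macrophage genes limma called 0 in either comparison without 2-m replicate 1. Of the marrow and the bone and cartilage lists 1 gene each, Mpo and Col2a1, fell in both comparisons, and the sums of both lists were highest in 2-m replicate 1. Without that library 0 marrow genes were called in either comparison, and 1 bone and cartilage gene fell at 20 months and 0 at 28 months. Neither of the 2 heart genes that could be tested was called by limma, and 1 of them, Tnnt2, had an unadjusted p under 0.05 for both older ages together (0.57 on the log2 scale, adjusted p = 0.127, limma). The sums of 4 red blood cell genes ranged from 1690 to 8982 at 2 months and from 2294 to 3835 later, and neither of the 2 tested was called at 20 or 28 months against 2 months with all libraries. Without 2-m replicate 1, which had the highest sum, both rose in each comparison, with medians of 0.86 and 1.21 on the log2 scale. The part of these markers in the results for the members was not tested.

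The positions of the members were taken from the RefSeq annotation of GRCm38 (mm10). Atp2a1 lies at chr7:126445858-126463103 on the minus strand, Atp2a2 at chr5:122453513-122502225 on the minus strand, Pln at chr10:53337686-53345999 on the plus strand and Sln at chr9:53850251-53853849 on the plus strand. Casq1 lies at chr1:172209894-172219895 on the minus strand, Casq2 at chr3:102086415-102146514 on the plus strand, Ryr1 at chr7:29003340-29125179 on the minus strand and Ryr3 at chr2:112631354-113217405 on the minus strand. Cacna1s lies at chr1:136052806-136119822 on the plus strand and Pvalb at chr15:78191112-78206400 on the minus strand. Besides Pln, in this annotation Atp2a1 overlaps Rabep2, Casq1 overlaps Gm17224 and Ryr1 overlaps Gm38979 and Gm26604, all on the opposite strand. Whether the read counting used strand is not given in the sources used here, so the RNA-seq reads of these members and of their antisense partners cannot be told apart. The promoter was taken as the bins of 500 bp within 1000 bases of the gene start, and the gene body as the bins from there to the gene end.

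The methyl-CpG-binding domain retains DNA fragments that carry methylated CpGs, so the signal depends on both the number of CpGs and their methylation. RefSeq promoter sequences of GRCm38.p6, each of 300 bases that end shortly after the start, were matched for 7 of the 10 members. At the youngest age, Casq1 and Cacna1s were the members with the largest difference in MBD promoter signal between tissues. Their promoters are shown with that of Pln, the poorest in CpG, and that of Ryr1. All are written 5′ to 3′ in the direction of the gene, and capitals mark each CpG.
Casq1, chr1:172219846-172220145, minus strand: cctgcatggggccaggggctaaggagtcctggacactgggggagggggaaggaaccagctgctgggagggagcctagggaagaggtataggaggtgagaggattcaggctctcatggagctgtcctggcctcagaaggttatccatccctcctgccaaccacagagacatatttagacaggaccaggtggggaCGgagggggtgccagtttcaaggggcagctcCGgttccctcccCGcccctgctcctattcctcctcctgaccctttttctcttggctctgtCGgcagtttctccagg
Cacna1s, chr1:136052561-136052860, plus strand: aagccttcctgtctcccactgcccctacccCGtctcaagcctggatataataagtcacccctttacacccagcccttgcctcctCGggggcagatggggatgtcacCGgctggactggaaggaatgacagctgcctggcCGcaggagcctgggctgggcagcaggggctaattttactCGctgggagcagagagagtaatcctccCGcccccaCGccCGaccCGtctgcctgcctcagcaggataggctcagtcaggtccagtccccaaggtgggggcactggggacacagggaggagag
Pln, chr10:53337436-53337735, plus strand: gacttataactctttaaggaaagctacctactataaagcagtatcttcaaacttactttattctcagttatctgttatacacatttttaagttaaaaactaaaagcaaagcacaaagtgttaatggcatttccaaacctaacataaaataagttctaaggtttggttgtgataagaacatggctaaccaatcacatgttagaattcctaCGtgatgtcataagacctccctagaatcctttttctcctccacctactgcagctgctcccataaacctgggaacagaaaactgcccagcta
Ryr1, chr7:29125102-29125401, minus strand: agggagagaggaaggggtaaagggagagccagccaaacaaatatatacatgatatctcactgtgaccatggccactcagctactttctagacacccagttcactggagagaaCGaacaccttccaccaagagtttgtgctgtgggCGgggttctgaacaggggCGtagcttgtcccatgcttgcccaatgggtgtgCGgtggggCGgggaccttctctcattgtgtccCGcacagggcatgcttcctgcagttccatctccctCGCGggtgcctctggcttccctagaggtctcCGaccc

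These windows hold 4 CpGs in Casq1, 9 in Cacna1s, 1 in Pln and 9 in Ryr1, beside a median of 7 over the 32851 mouse promoters of the same length. In the remaining members the count was 4 in Atp2a1, 6 in Casq2, and 5 and 25 in the 2 promoters of Pvalb. The hexamer CAGCTG, which reads the same on both strands and is a form of the E-box bound by muscle regulatory factors, was found in the promoters of Atp2a1, Pln, Casq1 and Cacna1s, and in 16.3% of all promoters. Over the wider window of 2500 bases used for MBD-seq, the CpG count ran from 15 in Pln to 106 in Ryr3 and 240 in Atp2a2, with 56 in Casq1 and 45 in Cacna1s.

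At 2 months, the MBD promoter signal was higher in T cells than in muscle for 9 of the 10 members, beside 58.2% of all genes, and more than 2-fold higher for 6, beside 9.87% of all 21521 genes with a promoter window. None of the 10 was more than 2-fold lower, beside 6.78% of all genes. At Casq1 it was 21.8, 16.5 and 18.5 normalized counts per bin in muscle at 2, 20 and 28 months and 91.2, 109 and 109 in T cells. Cacna1s had 11.1, 13.6 and 16.6 in muscle and 38.0, 41.6 and 44.1 in T cells. With the columns rescaled to equal sums, Casq1 remained higher in T cells at each age, at 68.7 against 32.2 at 28 months, whereas Cacna1s was higher in T cells at 2 and 20 months but not at 28 months, at 27.9 against 28.9. The other members past 2-fold at 2 months were Atp2a1, Ryr1, Pln and Casq2, in that their promoters had 13.4, 10.2, 12.8 and 32.7 in T cells and 4.91, 4.00, 5.09 and 15.6 in muscle. Sln, at 15.2 and 16.0, was the member that was not higher in T cells.

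The median of the 10 log2 differences between T cells and muscle at 2 months was 1.09, beside 0.12 over all genes. After rescaling to equal sums, it was 0.46 beside -0.48 over all genes, with 6 members higher and 4 lower, and 2 members were more than 2-fold higher, beside 2.91% of all genes. Each value is 1 pool, so there was no test, and the counting intervals cover counting error only. With 12 to 449 reads behind a promoter value, they are wide at the low genes.

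As deposited, the promoter signal of the members differed less with age in muscle than between tissues. The medians were 0.37 at 28 against 2 months and 1.09 for T cells against muscle, beside 0.24 and 0.12 over all genes. Rescaled to equal sums the order turned, with member medians of 0.79 and 0.46. Against 2 months, 8 of the 10 members were lower at 20 months, beside 54.5% of all genes, and none by more than 2-fold, beside 2.55% of all genes more than 2-fold lower and 3.21% higher. With a window of 500 bases on either side, 6 were higher instead. At 28 months 7 were higher, beside 61.0% of all genes, with a median of 0.37 beside 0.24 over all genes. Pln alone was more than 2-fold higher, with 5.09, 5.05 and 11.9 normalized counts per bin at 2, 20 and 28 months from 28, 30 and 93 reads. Among all genes, 20.6% were more than 2-fold higher at 28 months and 3.87% lower. Rescaled to equal sums, 3 members were higher and 7 lower at 20 months, and all 10 were higher at 28 months, 3 of them by more than 2-fold beside 35.6% of all genes. The median over all genes at 28 months was then 0.65, beside 0.79 for the members. At Sln, the gene with the largest rise in RNA, the promoter signal in muscle was 16.0, 13.3 and 15.0, and at Atp2a2 it was 6.004, 5.39 and 6.25. In both genes the counting intervals of the 3 ages overlapped.

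In T cells, 5 members were higher and 5 lower at 28 than at 2 months, beside 63.6% of all genes higher and 35.7% lower, and rescaled to equal sums 2 were higher and 8 lower. Ryr1, from 10.2 to 4.23, was the member more than 2-fold lower, beside 4.86% of all genes, and Ryr3 the one more than 2-fold higher, beside 11.7%. Ryr3 had 7.51 at 2 months and 32.1 and 32.5 at 20 and 28 months. In muscle the promoter of Ryr3 had 5.09, 6.90 and 9.18. In the gene bodies of muscle, 6 members were lower and 4 higher at 28 than at 2 months, beside 70.0% of all genes lower and 30.0% higher, with a median of -0.18 beside -0.25 over all genes, and rescaled to equal sums 8 were higher and 2 lower. Only Sln was more than 2-fold higher there, at 3.64, 4.49 and 10.9 normalized counts per bin from 24, 32 and 103 reads over 6 bins, beside 3.15% of all genes, and no member was more than 2-fold lower, beside 2.19%. Ryr1, with 35.5, 26.0 and 23.1 over 243 bins, had the largest decrease among the members, of 0.60 on the log2 scale.

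**Figure D5:**
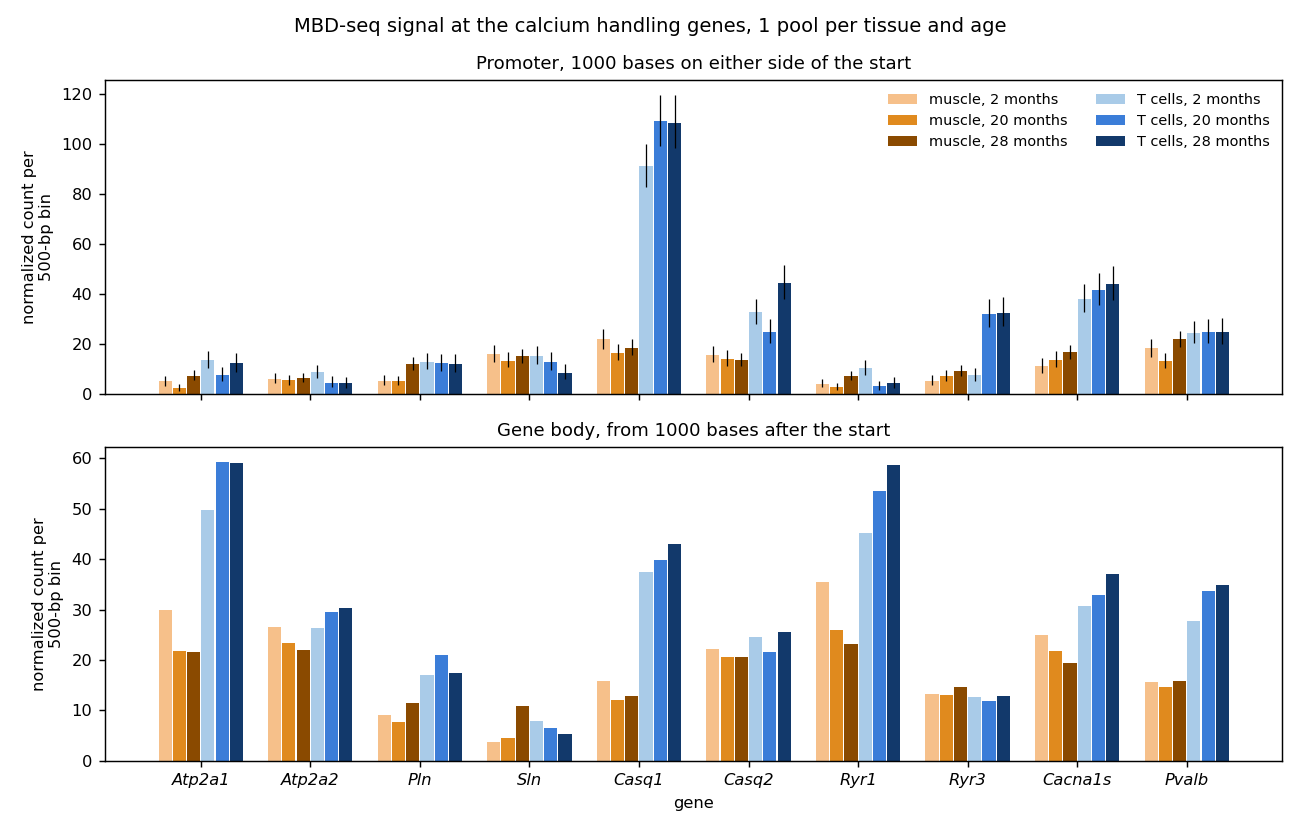
MBD-seq signal (normalized count per 500-bp bin) of the 10 genes in muscle and T cells at 2, 20 and 28 months, over the promoter (upper panel, with exact Poisson 95% intervals of the read count) and the gene body (lower panel). Each bar is 1 pool of 3 mice. As deposited, the promoters of Casq1 and Cacna1s are higher in T cells at all ages, a direction that turns for Cacna1s at 28 months when the columns are rescaled to equal sums, and in muscle the promoter of Pln and the gene body of Sln are more than 2-fold higher at 28 than at 2 months.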

How the data were processed

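RNA-seq was made from hindlimb muscle of 3 mice per age and MBD-seq from pooled DNA of muscle and splenic T cells. The deposited values of both tables are a normalized signal: the authors counted reads per RefSeq gene (htseq-count) or per 500-bp bin (bedtools) after trimming with Trim Galore, and divided each library by a DESeq2 size factor. MBD-seq reads were aligned to mm10 with Bowtie2, and the aligner of the RNA-seq reads is Hisat2 in the methods of the study but TopHat in the submitters' processing notes. All deposited values (100%, within 1e-06) were whole multiples of 1 step per library, so the reads were recovered. The muscle MBD-seq samples comprise 2 captures, of which each age has 1 column, and the round was not assigned. The 5 rows of the counter that name no gene, with 37.9 to 47.7% of the reads, were left out of all tests.

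The 9 RNA-seq libraries were fitted together by age with limma 3.58.1 (limma-trend) in R 4.3.3 on log2 of the normalized count plus 1, over genes with a mean of at least 10, with Benjamini-Hochberg adjustment and a threshold of 0.05. Fold changes are on that scale and understate those of low genes. Single genes were compared by two-sided exact permutation tests, in which the one-sided p is doubled. Levels per kb use the merged exons of the RefSeq transcripts. MBD-seq levels are means over bins, compared as log2 of the value plus 1. Alternatives were a pseudocount of 0.1 or 5, testing without the filter or with a minimum of 50, other scalings (to the same sum, TMM, quantile), the replicate number as a block, only the groups compared, libraries 1 and 2, leaving out each library, and count tests of the recovered reads with DESeq2 1.42.0 or the quasi-likelihood test of edgeR 4.0.16. For MBD-seq they were a window of 500 bases, rescaling and a pseudocount of 0.25. Rescaling without Rn45s was chosen after seeing the data. The fit was tested on simulated counts.

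The members and all gene lists were chosen with earlier results of these data known. Named genes are all members, some genes of the other lists, and the 3 genes with the profile most like each called member. The named list genes are not always those with the largest called changes. At 20 months Chrng of the denervation list rose by 2.82 and Cfd of the adipocyte list fell by 2.58 (limma). Of the listed genes, Strit1, Arln, Erln and Hbb-bt have no row by these names and were not analysed here. Whether htseq-count used the strand is not given in the sources used here. A result of the wider calcium gene lists is not reported here.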

Additional observations from a re-analysis of the deposited data

Results flagged for a closer look

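The medians of the members' MBD-seq differences between 2 and 28 months had opposite signs in muscle and T cells. Over the gene bodies, the median log2 difference was -0.18 in muscle and 0.19 in T cells, beside -0.25 and 0.25 over all genes, so that the members had the signs of all genes. Over the promoters it was 0.37 in muscle and -0.03 in T cells, beside 0.24 and 0.21 over all genes, and the T cell value, with 5 members higher and 5 lower, is close to 0. Each value compares 1 pool with 1 pool, and how the tissues differ was not tested. With every library rescaled to the same sum, the gene body medians were 0.25 in muscle and -0.12 in T cells, and the promoter medians 0.79 and -0.33, so that the direction over the gene bodies follows the scaling.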

How the results depend on the processing

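The number of members called stayed within 1.5 times its value in all alternatives for 20 against 2 months (4, range 4 to 6), 28 against 2 months (5, range 4 to 7) and both older ages against 2 months (5, range 4 to 7). Between 28 and 20 months it was 0, and it was 1 (Sln) when rescaled to equal sums, with the replicate block, with only the 2 groups, in edgeR and in DESeq2, and from 0 to 1 when single libraries were left out. With the replicate number as a block the counts were 6, 6, 1 and 6 of 10 in the 4 comparisons. The numbers were not treated as pairs: deviations from the group means of libraries numbered 3 correlated with each other (r from 0.109 to 0.161), those of libraries numbered 1 or 2 by less than 0.1.

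Over all genes, 2181, 1814, 50 and 2649 calls became 586, 554, 24 and 796 when rescaled to equal sums, 3000, 2529, 138 and 3370 with the block, and 1099, 712, 11 and 1327 in libraries 1 and 2. Between 28 and 20 months they were 228 in DESeq2 and 76 with only the 2 groups. Leaving out single libraries gave 1081 to 2231, 963 to 1846, 14 to 88 and 1646 to 2850.

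Directions turned only for small values that were called in no setting. Cacna1s for both older ages was -0.0032, and it was 0.024 rescaled, 0.0041 rescaled without Rn45s, 0.031 in libraries 1 and 2, and from -0.035 to 0.018 without single libraries. At 20 months it was -0.053 under quantile normalization. Between 28 and 20 months, Atp2a2 was 0.012 rescaled without Rn45s and 0.011 under quantile normalization, Ryr1 was 0.011 under quantile normalization, and without single libraries Atp2a2 lay between -0.29 and 0.12, Casq2 between -0.10 and 0.14 and Pln between -0.23 and 0.00052.

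For MBD-seq, rescaling moved the members' median promoter difference at 28 months in muscle from 0.37 to 0.79 and turned that of the gene bodies from -0.18 to 0.25, beside 0.65 and 0.18 over all genes. The difference of T cells from muscle moved from 1.09 to 0.46 when rescaled and to 1.40 with the narrow window. The causes were not tested. Few reads limit Ryr3, Sln at 2 months and the promoters of low signal.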
